A study of Homo sapiens with 5 samples.

Results

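Globins are the oxygen-carrying protein chains of red blood cells, and their transcripts were followed here in human embryonic stem cells together with AHSP and ALAS2, a pair of genes that serve hemoglobin assembly. The 10 genes, of 26506 in the deposited table, are HBB, HBD, HBA1, HBA2, HBG1, HBG2, HBE1, HBZ, AHSP and ALAS2. They were selected by symbol, after TPM values of the same 5 libraries had shown globin genes among the largest differences, so their levels and ratios below are a description and carry no test. All 10 symbols were found in the table. RNA sequencing of poly(A)-selected RNA gave 1 library for each of 5 groups of the H9 line, an established line of human embryonic stem cells. Wild-type (WT) cells were grown in basal medium (primed state per the labels), in 5iLAF (naive) and in 2iLAF (labelled between primed and naive, and the control of the design). Cells of genotype B3GALT5-/- (KO below) were grown in basal medium (primed) and in 2iLAF (naive). B3GALT5 encodes a galactosyltransferase of glycolipid synthesis, and the sources used here do not say whether the KO line is a single clone.

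Hemoglobin pairs alpha-like with beta-like chains around heme, and the chains made change with age. HBZ and HBE1 serve the embryonic red cell of the yolk sac, HBG1 and HBG2 the fetal red cell, and HBB and HBD the adult one, while HBA1 and HBA2 serve both fetus and adult. AHSP is a chaperone that binds free alpha chains, and ALAS2 is the erythroid form of the enzyme that starts heme synthesis. Pluripotent stem cells are not a site of hemoglobin synthesis. In the RefSeq gene table of GRCh38.p14 the beta-like genes lie on chromosome 11 in the order HBB, HBD, HBG1, HBG2, HBE1, with the pseudogene HBBP1 between HBD and HBG1, and the alpha-like genes on chromosome 16 in the order HBZ, HBA2, HBA1. AHSP lies elsewhere on chromosome 16 and ALAS2 on chromosome X.

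All 8 stem cell markers of a fixed list, POU5F1 among them at 1099 to 3350.3 TPM, were at or above 5 TPM in every library. TPM is a transcript level scaled by length and to the same total in each library. B3GALT5 itself stood at 9.31 TPM in WT basal and 5.98 in KO basal, at 5.13 in WT 2iLAF and 1.17 in KO 2iLAF, and at 2.08 in WT 5iLAF. The edited part of the gene is not given in the sources used here, so these levels do not check the knockout. Between 13729 and 14156 genes reached 1 TPM per library. No counts were given, so sequencing depth is not known. With 1 library a group there is no replicate error, so no difference below has an SD, an interval or a p-value, and no order of levels can be set against a spread between cultures. In bulk RNA, more cells of a type and more RNA per cell cannot be told apart.

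Globin transcripts were high in 2 libraries that share neither genotype nor medium, WT basal and KO 2iLAF. HBB, adult beta-globin, stood at 140.2 TPM in WT basal and 112 in KO 2iLAF, against 0.13 in KO basal and 0.21 in WT 5iLAF, and was listed at 0 in WT 2iLAF. The lower of the high pair was thus at 112 TPM and the highest of the other 3 libraries at 0.21. HBD, the minor adult beta-like chain, stood at 3.88 TPM in WT basal and 2.07 in KO 2iLAF and was listed at 0 in the other 3. HBD followed HBB in which libraries held it, at 2.69% of their joint level in WT basal and 1.81% in KO 2iLAF.

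**Figure D1:**
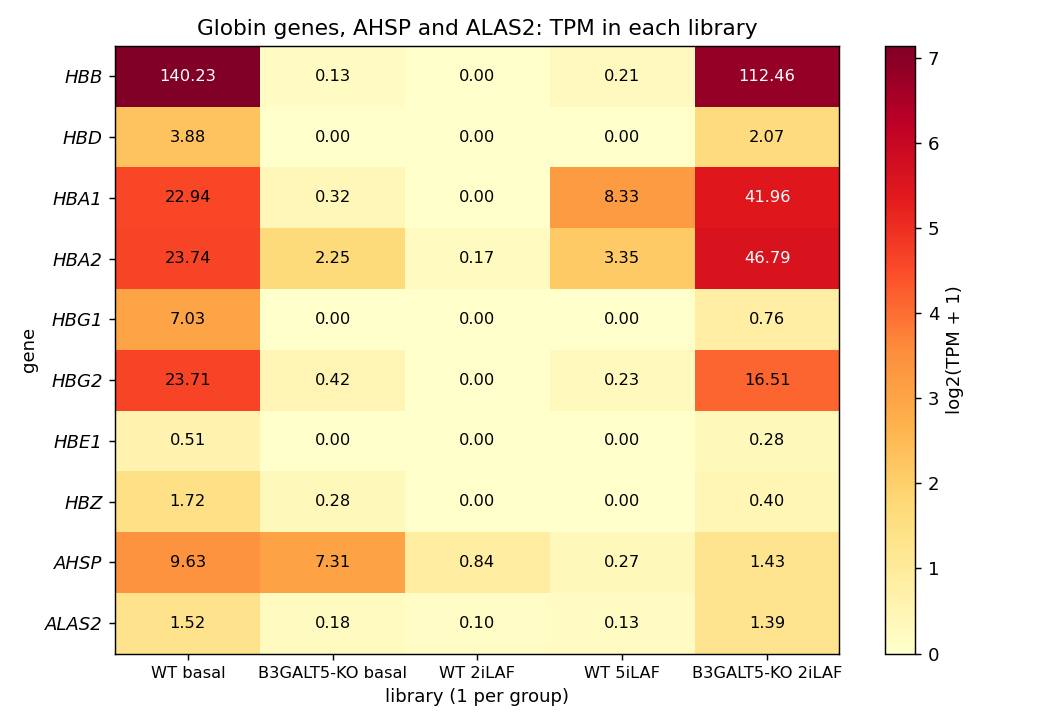
Level of each of the 10 genes (rows) in each of the 5 libraries (columns, 1 per group), printed as TPM and coloured by log2(TPM + 1). WT basal and KO 2iLAF hold the globins, HBB at 140.2 and 112 TPM, while AHSP is highest in the 2 basal libraries at 9.63 and 7.31 TPM.

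The alpha genes were divided less sharply. HBA1 stood at 22.9 TPM in WT basal and 42.0 in KO 2iLAF, with 8.33 in WT 5iLAF and 0.32 in KO basal, and was listed at 0 in WT 2iLAF. HBA2 stood at 23.7 TPM in WT basal and 46.8 in KO 2iLAF, with 3.35 in WT 5iLAF, 2.25 in KO basal and 0.17 in WT 2iLAF. HBA1 and HBA2 encode the same protein from near-identical transcripts, and reads that fit both were divided by an estimate, so their sum is the firmer value. That sum was 46.7 TPM in WT basal, 88.8 in KO 2iLAF, 11.7 in WT 5iLAF, 2.57 in KO basal and 0.17 in WT 2iLAF. Alpha-globin was therefore higher in KO 2iLAF than in WT basal, by 1.90 times, whereas HBB was lower there, at 0.802 times.

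Alpha transcripts in WT 5iLAF had almost no beta-like counterpart. HBA1, HBA2 and HBZ together came to 26.5 times the summed beta-like genes in that library (11.7 against 0.44 TPM). The same ratio was 0.276 in WT basal and 0.675 in KO 2iLAF, the libraries in which beta-like genes were abundant, and 5.18 in KO basal, where the beta-like sum was 0.55 TPM. In WT 2iLAF all beta-like genes were listed at 0. HBA1 made up 49.1% of the alpha pair in WT basal and 47.3% in KO 2iLAF, but 71.3% in WT 5iLAF and 12.5% in KO basal. The split between these near-identical genes is uncertain in any single library.

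Fetal gamma-globin was present in the same pair of libraries. HBG2 stood at 23.7 TPM in WT basal and 16.5 in KO 2iLAF, at 0.42 in KO basal and 0.23 in WT 5iLAF, and was listed at 0 in WT 2iLAF. HBG1 stood at 7.03 TPM in WT basal and 0.76 in KO 2iLAF and was listed at 0 in the other 3. The gamma genes are also near-identical, and HBG2 exceeded HBG1 by 3.37 times in WT basal and 21.7 times in KO 2iLAF. Their sum was 30.7 TPM in WT basal and 17.3 in KO 2iLAF, or 17.5% and 13.1% of beta-like transcripts.

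Embryonic globins were the lowest class. HBZ, embryonic zeta-globin, stood at 1.72 TPM in WT basal, 0.40 in KO 2iLAF and 0.28 in KO basal, and was listed at 0 in WT 5iLAF and WT 2iLAF. HBE1, embryonic epsilon-globin, stood at 0.51 TPM in WT basal and 0.28 in KO 2iLAF, was listed at 0 elsewhere, and was the 1 gene of the 10 that never reached 1 TPM. Its highest level lay under the 1 TPM needed to enter the comparisons, and that of ALAS2, at 1.52 TPM, just above it. No library thus held an embryonic globin above 2 TPM, and the 2 libraries with most adult globin held most embryonic globin as well.

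Summed by class, adult globins (HBB, HBD, HBA1, HBA2) came to 190.8 TPM in WT basal, 203 in KO 2iLAF, 11.9 in WT 5iLAF, 2.70 in KO basal and 0.17 in WT 2iLAF. Fetal globins (HBG1, HBG2) came to 30.7, 17.3, 0.23, 0.42 and 0 TPM in the same order, and embryonic globins (HBE1, HBZ) to 2.23, 0.68, 0, 0.28 and 0 TPM. The 8 genes together were nearly level between WT basal and KO 2iLAF, at 223.8 and 221 TPM, with a different make-up. Adult genes were 85.3% of the total in WT basal and 91.9% in KO 2iLAF, fetal genes 13.7% and 7.81%, and embryonic genes 0.997% and 0.307%. HBB alone was 62.7% and 50.8%, and the alpha pair 20.9% and 40.1%. With the alpha genes set aside, since they also serve the fetus, HBB and HBD summed to 144 TPM in WT basal, 115 in KO 2iLAF and 0.21, 0.13 and 0 TPM in WT 5iLAF, KO basal and WT 2iLAF.

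**Figure D2:**
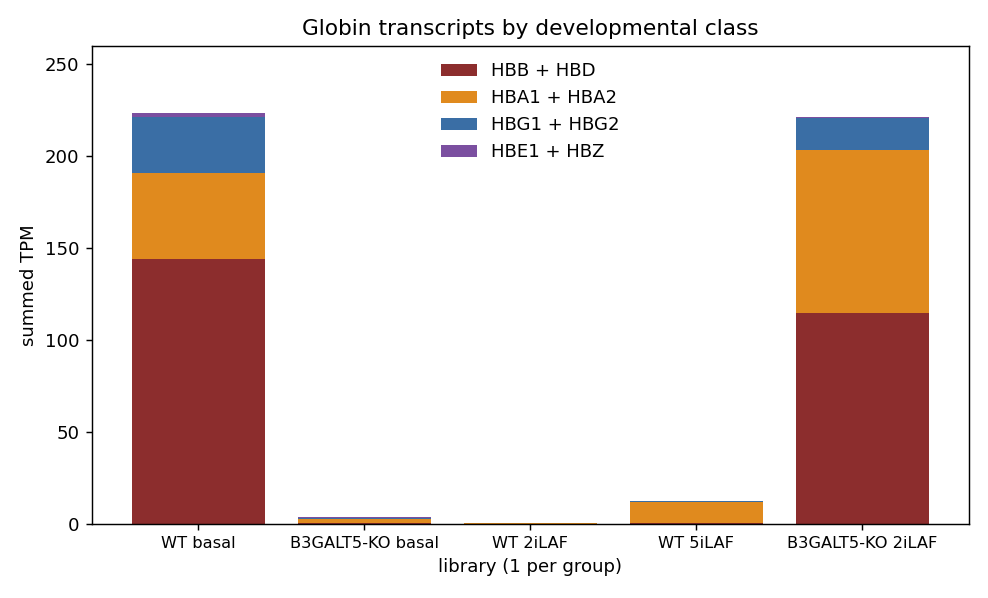
Summed TPM of adult beta-like (HBB + HBD), alpha (HBA1 + HBA2), fetal (HBG1 + HBG2) and embryonic (HBE1 + HBZ) globins, stacked, in each of the 5 libraries (1 per group, so no error bars). WT basal and KO 2iLAF reach 223.8 and 221 TPM, with the alpha pair at 20.9% and 40.1% of the total, and WT 5iLAF holds 12.1 TPM, nearly all alpha.

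AHSP did not follow the alpha-globin that its protein binds. It stood at 9.63 TPM in WT basal and 7.31 in KO basal, and at 1.43, 0.84 and 0.27 TPM in KO 2iLAF, WT 2iLAF and WT 5iLAF. The 2 highest libraries were thus the 2 in basal medium, and the highest of the 3 libraries poor in globin (7.31 TPM) exceeded the globin-rich KO 2iLAF. For each 100 TPM of the alpha pair, AHSP was at 20.6 TPM in WT basal and 1.61 in KO 2iLAF. It was at 284 in KO basal, 494 in WT 2iLAF and 2.31 in WT 5iLAF. The values of 284 and 494 rest on an alpha pair of only 2.57 and 0.17 TPM.

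ALAS2 was low throughout but had the division of the globins. It stood at 1.52 TPM in WT basal and 1.39 in KO 2iLAF, against 0.18, 0.13 and 0.10 TPM in KO basal, WT 5iLAF and WT 2iLAF. The lower of the high pair was 1.39 TPM and the highest of the others 0.18, with no overlap. Of the 10 genes, 9 were higher in both WT basal and KO 2iLAF than in any of the other 3 libraries, and AHSP was the exception. Over all 20855 genes above 0 in any library, 5.66% had that order. The 10 were chosen with these values in view, so nothing is read from their count. HBZ had the narrowest gap, at 0.40 against 0.28 TPM.

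Promoter sequences could be set beside the levels for 2 of the 10 genes, HBD and ALAS2, which both had that division at low levels. The RefSeq windows (GRCh38.p14, minus strand, 150 bases that end just before the transcription start, 5′ to 3′) lie at chr11:5234484-5234633 for HBD and chrX:55030978-55031127 for ALAS2. Capitals mark matches to AGATAA read on the opposite strand, the form bound by GATA factors such as GATA1, the master regulator of red cell genes.
HBD: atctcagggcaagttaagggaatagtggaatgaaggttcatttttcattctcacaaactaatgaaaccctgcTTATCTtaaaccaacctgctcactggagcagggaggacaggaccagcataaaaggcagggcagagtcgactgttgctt
ALAS2: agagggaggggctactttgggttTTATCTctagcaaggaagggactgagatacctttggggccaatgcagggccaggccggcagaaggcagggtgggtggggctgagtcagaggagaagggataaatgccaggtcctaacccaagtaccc
Each window held AGATAA once, with its first printed base at -78 in HBD and -127 in ALAS2, counted back from -1 at the last base before the start. On either strand, 5.17% of all 35116 RefSeq windows of the same 150 bases held AGATAA. The related form TGATAA, which shares its last 5 letters with AGATAA, was in neither window and in 3.76% of all. CACCC, the core of the site for KLF-type factors, matched at -60 and -56 in ALAS2 and not in HBD (39.6% of all windows), and CCAAT matched at -89 in ALAS2 and not in HBD (23.5% of all). These matches are letters in a window and do not show binding.

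Pairs of libraries were then compared on the scale log2((TPM + 1)/(TPM + 1)), which understates the ratio of low genes and gives no fold where a gene is listed at 0. Genes were counted higher or lower from a size of 1 upwards, which is 2-fold on that scale. Of 15761 genes reaching 1 TPM in at least 1 library, 9 were among the 10. Each passed that level through WT basal, where all 9 were above it, so their counts below partly restate how they entered. Because the genes were chosen with these values in view, nothing is read from their counts against the background.

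KO basal was first compared with WT basal, the contrast that the design offers for loss of B3GALT5 in primed culture. The globin level of WT basal also stood above that of the other 2 WT libraries, so the division did not follow genotype, and loss of B3GALT5 and any other difference between these single cultures cannot be told apart. Of the 9 genes, 8 were counted lower and 0 higher, where 1.05% of all compared genes were lower and 0.704% higher. Their median log2 ratio was -2.93, and that of all genes -0.06. HBB had the largest size, -6.97, and HBA1, HBA2 and HBG2 stood at -4.18, -2.93 and -4.12. AHSP, at -0.36, did not pass. With 5 TPM added in place of 1, 5 genes were counted lower.

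WT cells in each inhibitor medium were compared with the same WT basal library. In WT 5iLAF all 9 genes were counted lower, where 11.4% of all genes were lower and 10.7% higher. Their median was -2.51 (all genes -0.06). The smallest sizes were those of ALAS2 (-1.16), HBA1 (-1.36) and HBZ (-1.44). In WT 2iLAF all 9 were counted lower as well, with 7.02% of all genes lower and 4.73% higher. The median was -3.01 (all genes -0.13). After median-ratio scaling, which brings the median of all genes to 0.00, 53.6% of the counted genes were higher, against 40.2% on deposited TPM, and the count of 9 lower globin and partner genes was kept. HBB was at -6.87 in WT 5iLAF and AHSP at -3.07 and -2.53 in WT 5iLAF and WT 2iLAF.

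KO 2iLAF was compared with 3 libraries, which therefore share it. Against KO basal, 6 of the 9 genes were counted higher and 1 lower, where 15.9% of all genes were higher and 11.8% lower. The median of the 9 was 1.62 (all genes 0.02). The 6 were HBB, HBD, HBA1, HBA2, HBG2 and ALAS2, with HBB at 6.65, HBA1 at 5.02, HBA2 at 3.88 and HBG2 at 3.62. AHSP was the 1 lower gene, at -1.77. With 5 TPM added, or at a 4-fold size rule, 4 genes were counted higher and 0 lower. Against WT 2iLAF the same 6 genes were counted higher and 0 lower, where 16.6% of all genes were higher and 10.8% lower. HBA2, the globin above 0 in WT 2iLAF, was at 5.35 and ALAS2 at 1.12. Against WT 5iLAF they were again those 6, with 4.90% of all genes higher and 1.03% lower. HBA1 was at 2.20 there and HBB at 6.55.

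**Figure D3:**
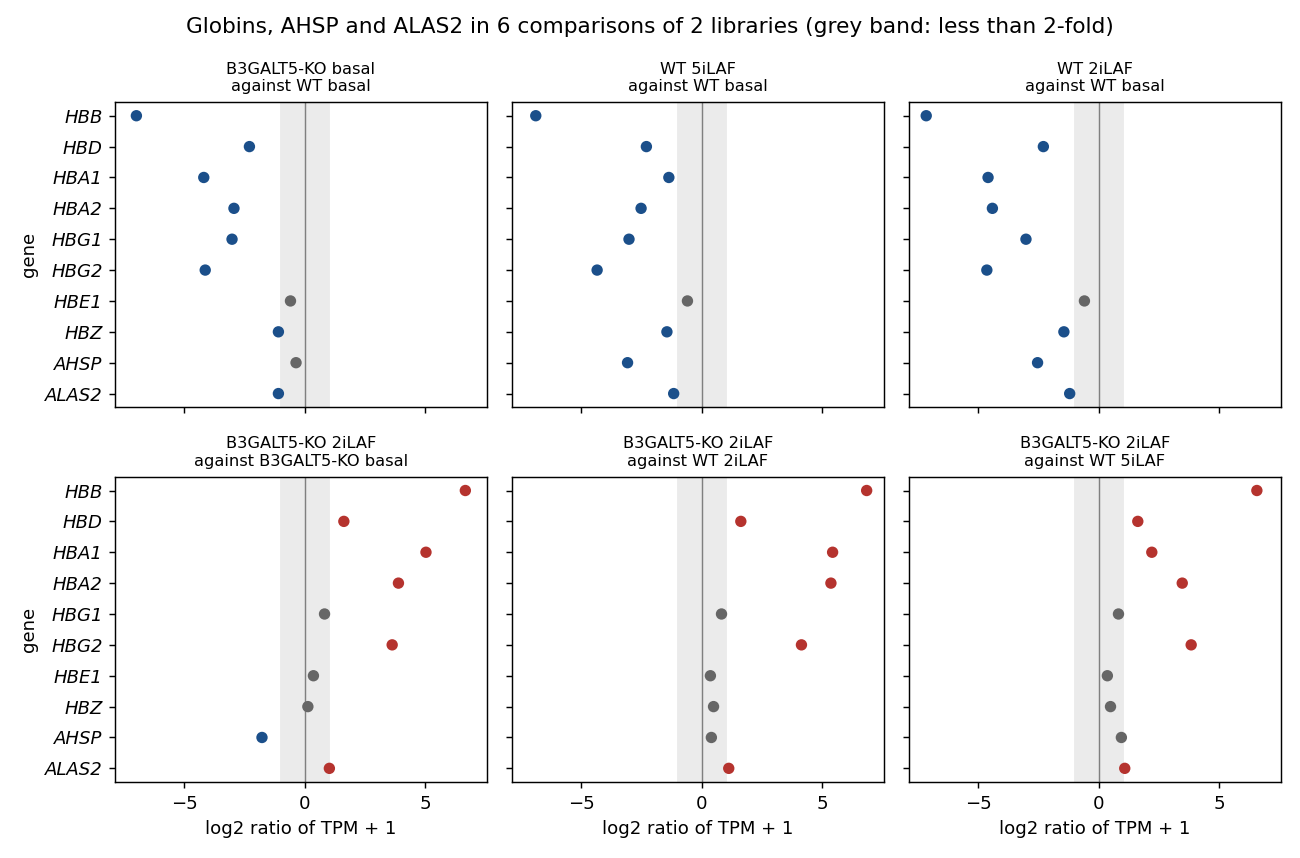
Log2 ratio of TPM + 1 (horizontal axis) of each of the 10 genes in 6 comparisons of 2 libraries, with the band under 2-fold in grey, higher genes in red and lower genes in blue. The upper row shares WT basal and the lower row shares KO 2iLAF; AHSP lies at -0.36 in KO basal against WT basal and at -1.77 in KO 2iLAF against KO basal.

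The other heme synthesis enzymes were more abundant than ALAS2. Of 8 enzymes besides ALAS2, all at or above 5 TPM in every library, 0 were counted higher or lower in KO basal against WT basal, with a median of -0.07. Of all genes 0.704% were higher and 1.05% lower in that comparison, so a count of 0 among so few is near the background, for these enzymes and for the lists that follow. ALAS1, the housekeeping form of the first enzyme, ranged from 46.0 to 55.4 TPM over the 5 libraries and exceeded ALAS2 in each. ALAD, which joins the precursor units into a pyrrole, stood at 43.6 and 42.0 TPM in WT 5iLAF and KO 2iLAF against 14.7, 15.0 and 18.0 in WT basal, KO basal and WT 2iLAF. It was the 1 enzyme of the 8 counted higher in KO 2iLAF, at 1.43 against KO basal and 1.18 against WT 2iLAF, where 15.9% and 16.6% of all genes were higher. UROD, which decarboxylates uroporphyrinogen, was at 207 and 175 TPM in WT 5iLAF and KO 2iLAF and between 91.8 and 127 in the rest. CPOX, the next enzyme, was highest at 31.6 TPM in WT basal and 28.4 in KO basal and stood at 14.7 in WT 2iLAF, the 1 enzyme of the 8 counted lower in that library against WT basal (-1.05). FECH, which inserts iron, stood between 6.83 and 11.7 TPM. ALAD and UROD thus set the 2 libraries labelled naive apart, a division the globins did not have.

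**Figure D4:**
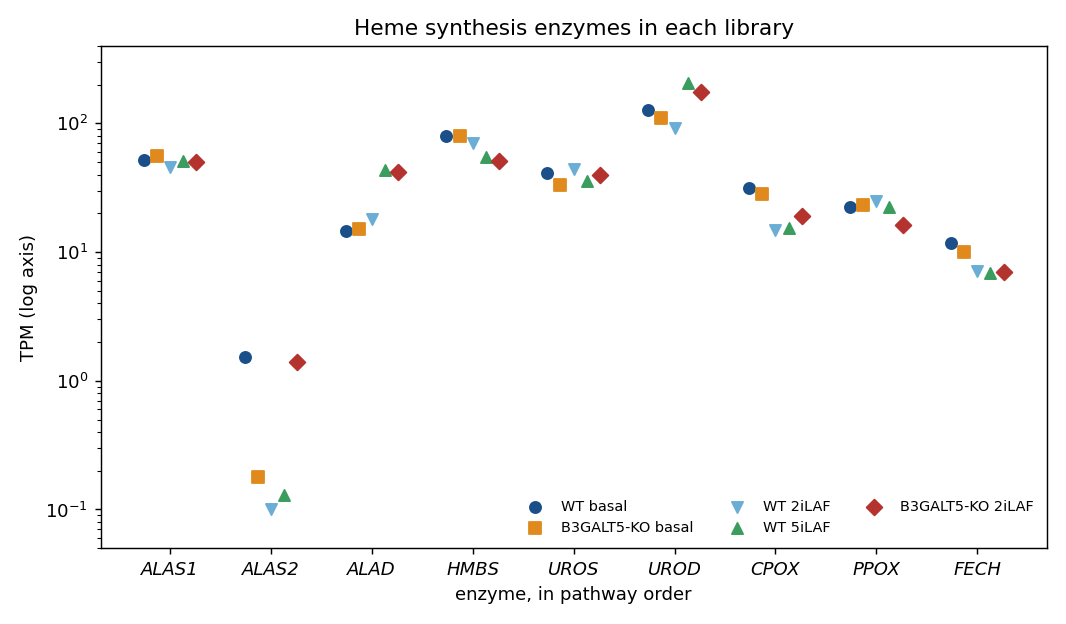
TPM (log axis) of the 9 heme synthesis enzymes in pathway order, with 1 point for each of the 5 libraries. ALAS2 alone separates WT basal and KO 2iLAF (1.52 and 1.39 TPM) from the other 3, while ALAD is at 43.6 and 42.0 TPM in WT 5iLAF and KO 2iLAF.

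Genes that move heme and iron were measured next. Of 12 mitochondrial partners of heme synthesis, 0 were counted higher or lower between KO basal and WT basal, and 1 was higher in KO 2iLAF against WT 2iLAF, below the 16.6% of all genes. Of 14 heme breakdown and export genes, 0 passed between the basal libraries, and 4 were higher and 1 lower in KO 2iLAF against KO basal, where 15.9% of all genes were higher and 11.8% lower. The 4 included HP, the hemoglobin-binding haptoglobin (2.33 TPM, listed at 0 in KO basal), and CD163, a hemoglobin scavenger receptor that is also in the macrophage list (1.11 against 0.02 TPM). White blood cell markers were also higher in KO 2iLAF, with their values given beside the globins, and their part in this count was not tested. The rest of the 4 were ABCG2, a heme and drug exporter, and HPX, and both were higher still in WT 5iLAF. ABCG2 stood at 10.3 and 8.72 TPM in WT 5iLAF and KO 2iLAF and at 0.67 to 1.58 in the others. HPX stood at 5.53 and 3.95 TPM in WT 5iLAF and KO 2iLAF and at 0.24 to 0.29 in the others. HMOX1, heme oxygenase, stood at 49.3 TPM in WT basal and 29.0 in KO basal, and at 17.2 to 19.8 in the other 3. Of 14 iron uptake and storage genes, 0 passed between the basal libraries, and 3 were higher and 2 lower in KO 2iLAF against KO basal, shares near those of all genes. TFRC, the transferrin receptor, stood at 84.0 TPM in WT basal, 150.8 in KO basal and 24.8 to 38.3 elsewhere, and FTH1, ferritin heavy chain, was at 5380 and 5150 TPM in WT 5iLAF and KO 2iLAF against 1631 to 2195. SLC40A1, the iron exporter, was at 30.0 TPM in KO 2iLAF, 7.30 in WT 5iLAF and at most 0.39 elsewhere.

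Globin-fold genes outside the 10 had other patterns. HBQ1, theta-globin, lies beside HBA1 on chromosome 16 and stood at 2.62, 2.61 and 3.29 TPM in WT basal, KO basal and WT 2iLAF but at 0.36 and 0.20 in KO 2iLAF and WT 5iLAF. It was thus low in KO 2iLAF, where HBA1 was at 42.0 TPM. HBM, mu-globin of the same cluster, was listed at 0 in 4 libraries and at 0.21 TPM in WT 2iLAF. CYGB, cytoglobin of many tissues, stood between 2.00 and 3.21 TPM in the 5 libraries. MB, myoglobin, was at 3.90 TPM in WT 2iLAF and at most 0.82 in the others.

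GATA1 and KLF1, transcription factors that define the red cell lineage, were at or near 0 in every library. GATA1 was at 0.22 TPM in KO 2iLAF and 0.05 in WT basal and listed at 0 in the other 3. KLF1, the activator of adult beta-globin, stood between 0.30 and 0.77 TPM. SLC4A1, the red cell anion exchanger, stood at 1.38 TPM in WT basal and 0.77 in KO 2iLAF against at most 0.10. EPOR, the erythropoietin receptor, stood above these, between 5.39 and 12.6 TPM, highest in the 3 libraries other than WT 5iLAF and KO 2iLAF. LDB1 (89.9 to 111.6 TPM) and TCF3 (83.8 to 168.8), of the list of erythroid transcription factors, stood higher still in every library. Of 21 red cell membrane genes, 5 were higher in both globin-rich libraries than in any other, SLC4A1, EPB42 and RHAG among them. So were 3 of 15 erythroid transcription factors (GATA1, TAL1, GFI1B) and 2 of 22 late erythroid genes (CA1, HEMGN). The rest of each list did not have that order. Over all 20855 genes above 0 in any library that share was 5.66%. Most levels behind these calls were under 1 TPM, at unknown depth. TAL1 stood at 0.19 and 0.13 TPM in WT basal and KO 2iLAF against at most 0.11 elsewhere. GFI1B stood at 0.32 and 0.53 TPM against at most 0.07. The summed red cell membrane list did not follow the globins. It came to 137, 122, 88.7, 188 and 508 TPM in WT basal, KO basal, WT 2iLAF, WT 5iLAF and KO 2iLAF, and 352 TPM of the last sum was AQP1, a water channel of many tissues.

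Markers of other blood cells differed between the 2 globin-rich libraries. All 20 neutrophil and precursor markers were at or above 5 TPM in KO 2iLAF and summed to 1461 TPM, with S100A9 at 583, S100A8 at 299 and FCGR3B at 50.4. In WT basal, whose globin total was alike, the same list summed to 18.1 TPM, of which MMP9 held 16.2, and 13 of its 20 genes were listed at 0, S100A8 and S100A9 among them. The 3 libraries poor in globin summed to between 5.64 and 25.3 TPM. Monocyte and macrophage markers summed to 331 TPM in KO 2iLAF and 37.3 to 163 in the others. VCAN alone held 176 TPM of that sum in KO 2iLAF and 34.3 to 149 in the others, where it was most of the sum. LYZ, the next in level, stood at 114 TPM in KO 2iLAF and 1.46 to 8.94 in the others. Lymphocyte markers summed to 21.1 TPM in KO 2iLAF against 2.68 to 9.12. Platelet and megakaryocyte markers summed to between 3.66 and 7.87 TPM, mostly ITGA2B. Eosinophil, basophil and mast cell markers summed to 31.7 TPM in KO 2iLAF and to 2.59 to 5.86 in the others. PTPRC, the pan-leukocyte marker CD45, was at 8.83 TPM in KO 2iLAF and 0.04 in WT basal. In KO 2iLAF the white blood cell markers thus moved with the globins and their part in the globin level was not tested, whereas in WT basal the globins stood at 223.8 TPM with S100A8, S100A9 and FCGR3B listed at 0.

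**Figure D5:**
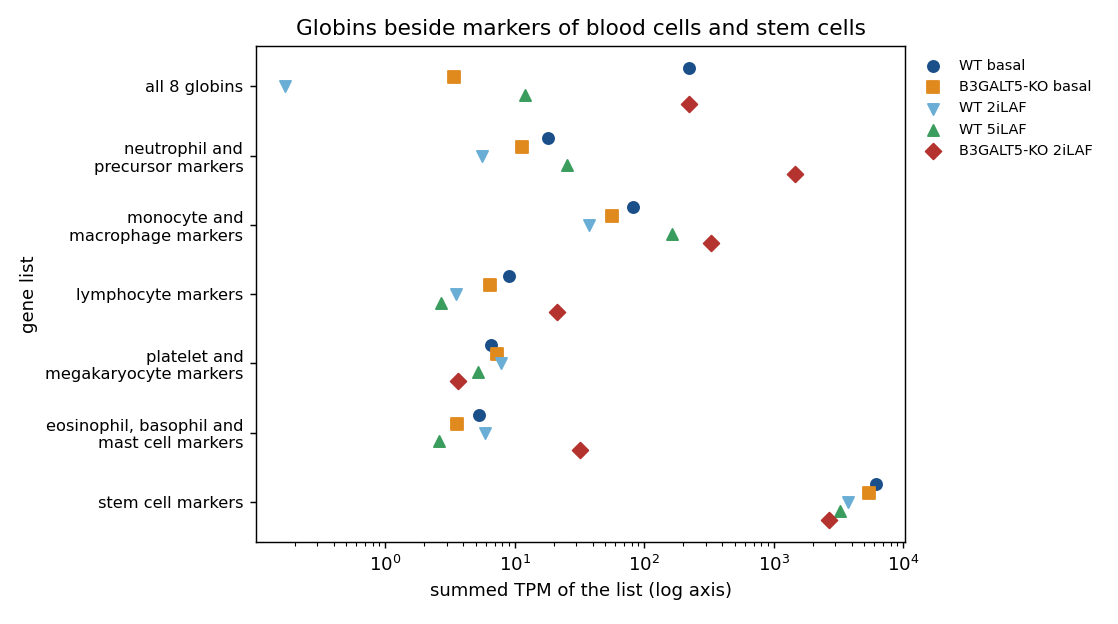
Summed TPM (log axis) of the 8 globins, 5 lists of blood cell markers and the stem cell markers, with 1 point for each of the 5 libraries. KO 2iLAF stands at 1461 TPM of neutrophil markers and WT basal at 18.1, although their globin sums are 221 and 223.8 TPM.

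Genes whose 5-library pattern is most like the summed adult and fetal globins were looked for among 10376 genes reaching 10 TPM in at least 1 library. Likeness was 1 minus the summed absolute difference of the shares that each library holds, divided by 2, so that 1 means the same shares in all 5 libraries. The globin sum had 48.4% of its level in WT basal and 48.2% in KO 2iLAF. Outside the 10 genes none reached 0.8. HLA-B, a class I antigen-presenting molecule, came first at 0.709, with 138 TPM in KO 2iLAF, 47.2 in WT basal and 13.8 to 23.7 in the others. HLA-DRA, of class II, followed at 0.699, then FOS at 0.684 and LTBR, GBX2 and KCTD12 at 0.678 each. SMIM11A (0.672), MOXD1 and FAM129A (0.669 each) and SNORA63 (0.664) completed the first 10. Of the 2 partner genes, which are no part of the sum but lie under the 10 TPM asked of other genes, ALAS2 stood at 0.910 and AHSP at 0.579. At a least level of 0.2 TPM, 8 genes outside the 10 reached 0.9, RHAG among them at 0.956. All share the 5 libraries and their scaling, so likeness is a description of these libraries.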

How the data were processed

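Per the labels' protocols, poly(A) RNA of H9 cells went into stranded TruSeq libraries. Reads were processed with Trimmomatic 0.39, Bowtie2 2.3.4.1 and RSEM 1.2.28 on hg19, per the submitters' processing notes. The annotation and strand option were not given in the sources used here. Per the file headers, the authors deposited TPM values for 26506 gene symbols in 5 libraries. FPKM values, deposited by the authors in the same table, were used as an alternative. Reads shared by near-identical genes are apportioned by RSEM, which makes HBA1 against HBA2 and HBG1 against HBG2 uncertain.

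The labels put each library in a group of its own. Libraries were compared in 6 pairs as log2((TPM + 1)/(TPM + 1)) over 15761 genes reaching 1 TPM in at least 1 library, with a size rule of 2-fold and no test. The genes described and the gene lists were chosen with earlier results of these data known. The text names all 10 genes, defining red cell genes, list members by size or level, and the 10 genes most like the globin sum; other names were chosen after their values were seen. Some red cell genes of the lists are not reported here. Alternatives were a pseudocount of 0.1 or 5, a filter of 5 TPM or none, size rules of 1.5-fold and 4-fold, median-ratio scaling, FPKM, and leaving the alpha genes out of the adult sum. The procedure was tested on simulated data. Chromosome order and promoters came from RefSeq (GRCh38.p14) by symbol. Python 3.11.15, numpy 2.4.6, pandas 2.3.3 and matplotlib 3.10.9 were used.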

Additional observations from a re-analysis of the deposited data

Results flagged for a closer look

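The change from basal medium to 2iLAF ran in opposite directions in WT and KO cells for 6 of the 10 genes and for the adult and fetal sums. Each was lower in 2iLAF in WT and higher in 2iLAF in KO, by at least 2-fold on the log2(TPM + 1) scale. The share of all compared genes that ran in opposite directions in this way was not counted. The 10 genes were also chosen with these values in view, so nothing is read from the count of 6. The KO change minus the WT change was 13.79 for HBB, 9.61 for HBA1, 8.28 for HBA2, 8.25 for HBG2, 3.91 for HBD and 2.21 for ALAS2. It was 13.14 for the adult sum, which went from 190.8 to 0.17 TPM in WT and from 2.70 to 203 TPM in KO, and 8.67 for the fetal sum. The call is weak for the low genes. ALAS2 lost the 2-fold call in both genotypes with FPKM (-0.75 in WT and 0.62 in KO), with a pseudocount of 5 (-0.35 and 0.30) and at the 4-fold rule, and HBD lost it in both with a pseudocount of 5 (-0.83 and 0.50). These differences depend on the added 1 TPM where WT 2iLAF is listed at 0 and are no folds. With 1 library for each arm the difference was not tested. AHSP was lower in 2iLAF in both genotypes, by -2.53 in WT and -1.77 in KO.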

How the results depend on the processing

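The count of genes past the size rule and the log2 ratio of the adult sum, each in 6 comparisons, kept their side of the rule, and the count stayed within 1.5 times, in 98 of 102 recomputations. That tolerance is wide for counts this small. It took as kept a fall from 9 to 6 in WT 5iLAF against WT basal with a pseudocount of 5. It also took as kept a rise from 6 to 9 in KO 2iLAF against WT 5iLAF with a pseudocount of 0.1. In KO basal against WT basal the 8 genes counted became 5 with a pseudocount of 5 and 5 with a filter of 5 TPM, which leaves fewer genes in. In KO 2iLAF against KO basal the 7 genes counted became 4 with a pseudocount of 5 and 4 at the 4-fold rule. Single genes and the fetal and embryonic sums kept their call in 491 of 552 recomputations, lost it in 46 and gained it in 15, and 0 reversed a call. Many of these could not change. The filter settings leave the ratio of a single gene as it was. The 1.5-fold rule can only add calls and the 4-fold rule only remove them. FPKM had a median of 0.484 to 0.531 times TPM by library, so it acts much like a larger pseudocount. No paired analysis was possible because each group holds 1 library, and for the same reason no library could be left out of a group. These recomputations include a rescaling of TPM without 61 white blood cell and platelet genes, chosen after seeing the data. Those genes held at most 0.185% of all TPM in any library, so by construction it could hardly move another gene, and it says nothing about their part in the results. Levels under about 1 TPM are the least certain, since depth is unknown. They include HBE1 in every library and HBG1 and HBZ outside WT basal. Of 21 red cell membrane genes, 14 were under 1 TPM in WT basal and 10 in KO 2iLAF.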

Other observations

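When the least level was set to 0.2 TPM after the data had been seen, 18671 genes reached it, the 10 included. Of those outside the 10, 28 had a likeness of at least 0.8 to the globin sum. Of these 28, 9 were in one of the gene lists and 19 in none. The share of all 18671 genes that lie in a list was not counted, so nothing is read from the 9. Among the 9, RHAG, the Rh-associated glycoprotein of red cells, stood at 0.38 TPM in WT basal and 0.34 in KO 2iLAF and was listed at 0 in the other 3 libraries. HEMGN, a nuclear protein of erythroid cells, stood at 0.38 and 0.33 TPM in the same pair and at most 0.05 elsewhere. EPB42, a red cell skeleton protein, stood at 0.24 and 0.13 TPM and GFI1B, an erythroid and megakaryocyte repressor, at 0.32 and 0.53 TPM. The mast cell proteases TPSAB1 (0.58 and 0.69 TPM) and CPA3 (0.35 and 0.19) were among the 9 as well, while MS4A2, HDC and GATA2 of the same list were not, with GATA2 highest in WT 2iLAF at 4.92 TPM. Genes of no list included TPSB2 (1.60 and 1.00), RNVU1-19 (1.82 and 1.99) and HIST1H4F (0.43 and 0.35). These genes were named after their values were seen, their levels are low, and depth is unknown.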
